A study of Mus musculus with 40 samples.

Results

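The genes described here carry out the storage and release of fat in adipocytes. The list held 31 genes named by function and was chosen with earlier results of these data known. The shares of all probe sets given beside its counts are thus a scale and not a test. Of the 31 genes, 28 had an array probe set assigned to 1 gene symbol, out of 18193 genes with such a probe set. A gene with several was read from its brightest one, judged by the average of the 40 arrays. Plin1, Acsl1 and Adrb3 were not analysed here.

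Adipocytes take up fatty acids, join them to glycerol as triglyceride and keep the product in a coated lipid droplet, from which lipases release it again. The nuclear receptor Pparg and its partner factor Cebpa hold the fat cell programme in place, insulin favours storage and adrenergic signals favour release. The mouse mammary gland lies in a fat pad made largely of such cells, so a sample of whole gland carries much adipocyte RNA.

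Breast tissue of 40 mice was measured on 1 Affymetrix array per mouse, in 8 groups of 5. The controls were glands of wild type mice of the strain BalbC and glands of WAP-TNP8 mice before activation, in which the transgene had not yet been switched on by lactation. Further WAP-TNP8 glands were taken 1, 2, 3, 4 and 5 months after activation (1M to 5M), and the last group held invasive breast tumours of WAP-TNP8 mice, which carried the same transgene. In WAP-TNP8 mice the WAP promoter drives the T/t-antigen of SV40 in mammary epithelial cells, not in fat cells. Activation came with a lactation and no wild type gland after a lactation was analysed here, so the active transgene and the past lactation cannot be told apart. All values below are log2 GCRMA intensities, with differences on the same scale. "Controls" means the 10 arrays of wild type and before activation together, which every comparison against controls shares. In these samples of whole tissue, fewer fat cells and less RNA of a gene per fat cell cannot be told apart.

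The tissue label was checked with 6 other adipocyte markers (Adipoq, Retn, Lep, Adig, Car3 and Thrsp). Their mean lay between 13.70 and 14.81 on the control arrays, between 13.16 and 14.46 on the arrays of 1M to 5M, and between 6.02 and 11.36 on the tumour arrays. Some arrays stood apart. The Dap labelling spike-in was low on 7 arrays, of which 4 were 5M and 3 were controls, and B cell markers were high on 14 arrays, 3 of them controls and 6 of them 2M or 3M. Skeletal muscle markers were high on 11 arrays. Replicate 1 of before activation had a mean milk gene level of 8.11, against at most 4.98 on the other control arrays. Results that moved without such arrays are given with and without them.

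A majority of the fat storage genes were lower in the glands 2 and 3 months after activation, with the lowest probe set used at 3.16-fold (Lipe), and 27 of 28 were lower in invasive tumours. At 2M and 3M together, called early below, 17 of the 28 were lower than in controls at an adjusted p of at most 0.05 (limma, Benjamini-Hochberg over 45037 probe sets) and 0 were higher, where 6.53% of all probe sets tested were lower and 5.36% higher. This early count was 2 (Pparg and Acvr1c) against before activation alone and 8 to 11 in 4 other settings, and Pparg was the only one of the 17 that passed in every setting. In tumours 27 of 28 were lower and 0 higher, against 14.4% of all probe sets lower and 18.8% higher. The median difference of the 28 genes was -0.86 at 2M and 3M and -4.99 in tumours, beside medians over all probe sets of 0.01 and -0.00. In tumours the genes kept between 0.367% (Abcd2) and 49.4% (Insr) of the control level, with a median of 3.15%. Abcd2 read 2.73, 2.85 and 3.32 in the 3 lowest tumours, near the low end of the table, so its share is limited by how such values were summarised.

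**Figure D1:**
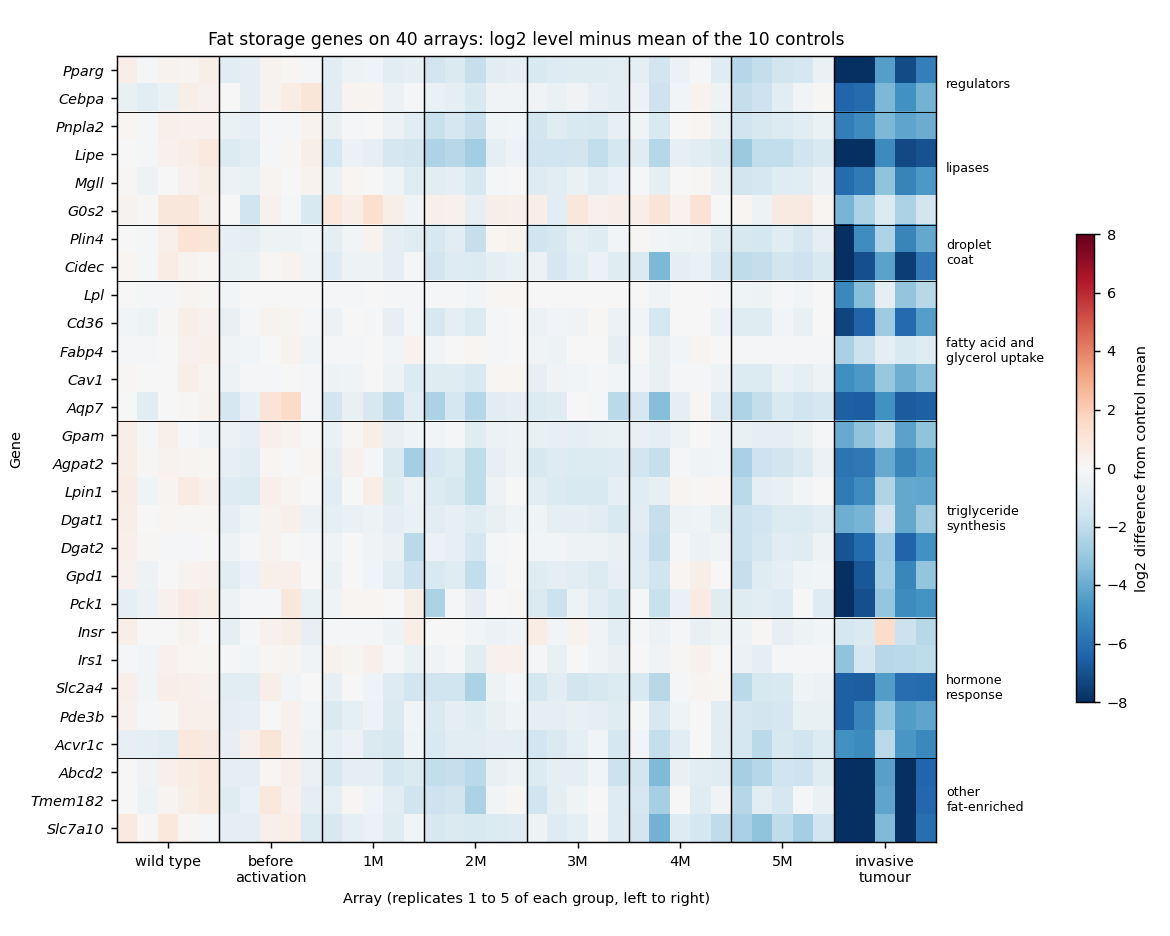
Log2 level of each of the 28 genes (rows, grouped by role) minus its mean over the 10 control arrays, on each of the 40 arrays (columns), with colours that stop at a difference of 8. The 5 tumour arrays are the darkest blue, with replicate 3 the palest of them, and within the glands the low arrays include 4M replicate 2 and 5M replicate 1.

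Of the regulators, Pparg, the nuclear receptor that directs fat cell differentiation, read 11.84 to 13.27 on the control arrays, with a median of 12.90. On the 10 arrays of 2M and 3M it read 10.85 to 11.95. In the tumours it read 3.76, 4.06, 8.33, 5.54 and 7.26 in replicates 1 to 5. Every early array lay below the control mean, with an overlap of the groups at 11.84 to 11.95, and every tumour array lay far below all controls. The differences were -1.13 ± 0.19 (SE, adjusted p = 0.000518) at 2M and 3M and -6.93 ± 0.62 (adjusted p = 8.85e-07) in tumours. Cebpa, the transcription factor that works with Pparg, read 11.89 to 13.68 in controls, 11.51 to 12.46 at 2M and 3M, and 6.34, 6.56, 9.14, 7.90 and 8.92 in the tumours. Its early difference of -0.58 ± 0.22 did not pass (adjusted p = 0.104), though 10 of 10 arrays were below the control mean, whereas its tumour difference of -4.94 ± 0.47 did (adjusted p = 1.64e-06).

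Both regulators bind DNA, so the 250 bases before the transcription start were read from a RefSeq table (build GRCm38.p6), which held 28 such stretches for 19 of the 28 genes. A C/EBP type motif, TTGCNNAA on either strand, stood in 2 of these 28 stretches (7.14%) and in 9.56% of all 32851 stretches in the table. A direct repeat of the kind Pparg binds with its partner, AGGNCA and AGGNCA with 1 base between them on either strand, stood in 0 of 28 and in 0.338% of all. The stretches with the C/EBP type letters, shown with those letters in capitals, belong to Pparg itself (chr6:115421816-115422065, plus strand) and to the droplet gene Cidec (chr6:113434765-113435014, minus strand).
Pparg: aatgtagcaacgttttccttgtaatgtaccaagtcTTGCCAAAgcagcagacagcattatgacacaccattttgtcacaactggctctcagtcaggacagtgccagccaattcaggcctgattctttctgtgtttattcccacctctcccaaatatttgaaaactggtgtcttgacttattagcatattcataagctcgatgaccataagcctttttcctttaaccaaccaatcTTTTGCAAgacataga
Cidec: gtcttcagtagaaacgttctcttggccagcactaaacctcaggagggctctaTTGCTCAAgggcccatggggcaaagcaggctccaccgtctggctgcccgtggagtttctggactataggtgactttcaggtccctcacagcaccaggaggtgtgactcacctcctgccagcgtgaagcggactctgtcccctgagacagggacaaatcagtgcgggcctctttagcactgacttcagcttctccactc
Matches of letters are a description of these windows and were not measured as binding sites. For the C/EBP type motif, 2 matches are too few to compare its share with that of all stretches. At 0.338% of all stretches the direct repeat would seldom appear in 28, so its absence shows nothing.

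Of the lipase group, Pnpla2, which makes the first cut in stored triglyceride, read 13.69 to 14.75 in controls and 12.47 to 14.13 at 2M and 3M. Its tumour values were 8.80, 9.32, 10.76, 10.11 and 10.34. The early arrays were low except for 2M replicates 4 and 5, which lay within the control range, and the tumours were low throughout. The differences were -1.10 ± 0.21 (adjusted p = 0.00164) and -4.46 ± 0.28 (adjusted p = 4.60e-08). Mgll, which makes the last cut, read 13.54 to 14.58 in controls, 12.81 to 14.11 at 2M and 3M and 7.95, 8.42, 10.84, 8.77 and 9.48 in tumours. It differed by -0.69 ± 0.17 early (adjusted p = 0.00926) and by -4.99 ± 0.37 in tumours (adjusted p = 1.51e-07). Lipe, the hormone-sensitive lipase, singled out after its values were seen, had the lowest early difference of the 28 genes (-1.66 ± 0.29, adjusted p = 0.000903). It read 3.11, 2.87, 6.5, 4.37 and 4.62 in the tumours, where its difference was -7.32 ± 0.50 (adjusted p = 7.96e-08).

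G0s2, a small protein that inhibits Pnpla2, was singled out after its values were seen, as the only one of the 28 genes with a positive early difference. It read 10.51 to 13.05 in controls and 11.21 to 13.05 at 2M and 3M, so the groups overlapped throughout. Its early difference was 0.24 ± 0.31 (adjusted p = 0.778), higher than the control mean on 8 of 10 arrays. This value depended on which controls were used, since it was -0.27 against wild type alone. In the tumours G0s2 read 8.39, 9.58, 11.06, 9.61 and 10.67, with replicates 3 and 5 inside the control range, and it differed by -2.27 ± 0.48 (adjusted p = 0.00166). Against before activation alone the tumour difference was -1.76 and did not pass (adjusted p = 0.0582).

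**Figure D2:**
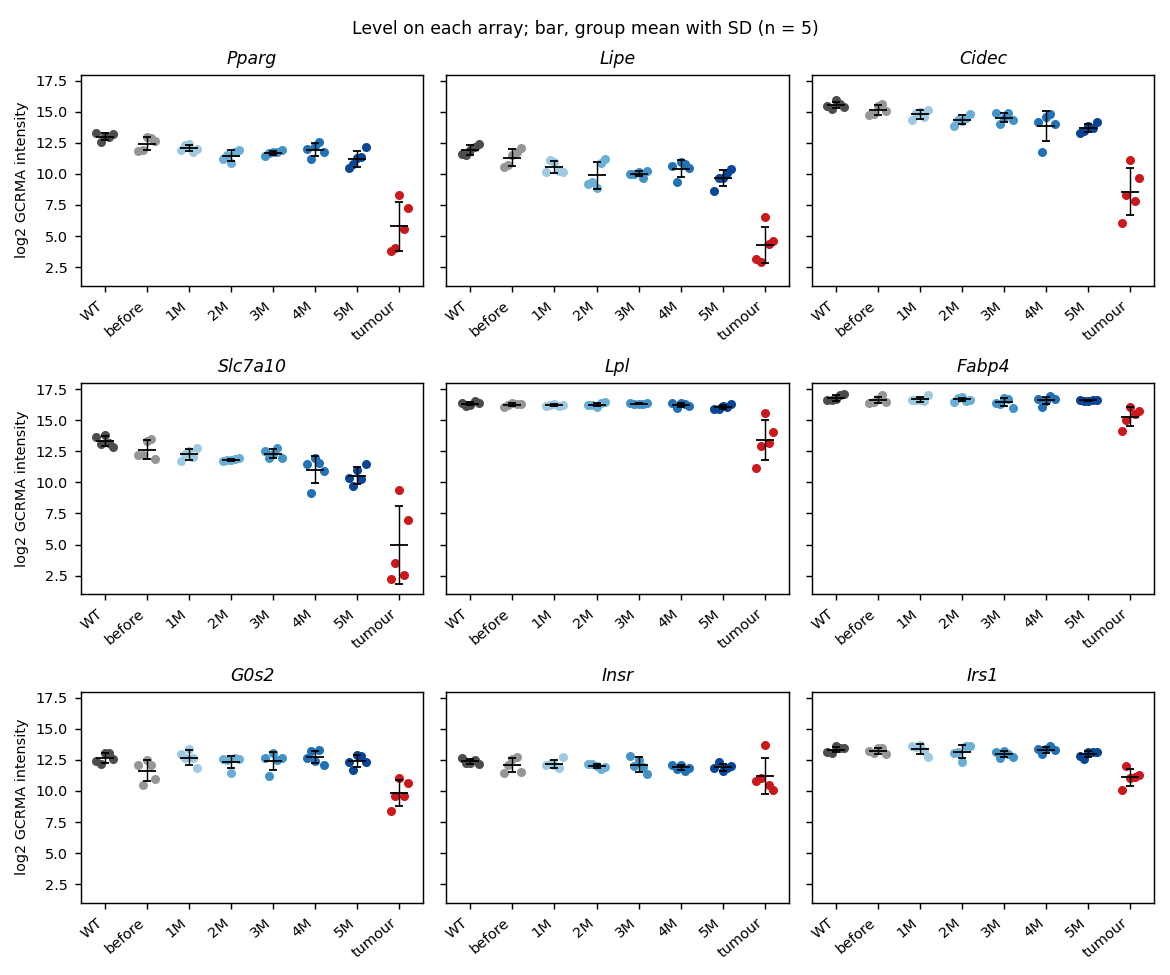
Log2 intensity (y axis) of 9 genes on each array by group (x axis: WT, wild type; before, before activation; 1M to 5M, months after activation; tumour, invasive tumour), with the mean and SD of the 5 arrays in black. Pparg, Lipe, Cidec and Slc7a10 fall steeply in tumours, Lpl and Fabp4 lie near the top of the scale in all glands, and in tumours Insr ranges from 10.04 to 13.67.

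Of the genes that coat the lipid droplet, Cidec, which merges small droplets into large ones, read 14.76 to 15.91 in controls and 13.85 to 14.90 at 2M and 3M. In the tumours it read 6.01, 8.34, 11.08, 7.80 and 9.63. The early arrays overlapped the controls only between 14.76 and 14.90. Cidec differed by -0.91 ± 0.16 early (adjusted p = 0.000783) and by -6.77 ± 0.58 in tumours (adjusted p = 6.10e-07). Plin4, a coat protein of growing droplets, read 12.85 to 14.63 in controls and 11.74 to 13.85 at 2M and 3M. Its tumour values were 5.45, 8.60, 11.09, 8.26 and 9.5, all below the controls. Its early difference of -0.85 ± 0.29 did not pass (adjusted p = 0.0678) and its tumour difference of -4.99 ± 0.67 did (adjusted p = 3.72e-05).

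Of the genes of fatty acid and glycerol uptake, 1 of 5 was lower early and 5 of 5 in tumours. Lpl, the lipase that frees fatty acids from circulating lipoproteins, read 16.10 to 16.53 in controls and 16.09 to 16.44 at 2M and 3M. In the tumours it read 11.18, 12.91, 15.57, 13.17 and 14.06. Its early difference was -0.01 ± 0.05 (adjusted p = 0.974), and the tumour difference was -2.93 ± 0.48 (adjusted p = 0.000208). Fabp4, the carrier of fatty acids inside the fat cell, read 16.42 to 17.14 in controls, 16.02 to 16.88 at 2M and 3M and 14.11, 15.01, 16.04, 15.49 and 15.77 in tumours. It differed by -0.16 ± 0.11 early (adjusted p = 0.498) and by -1.44 ± 0.25 in tumours (adjusted p = 0.000379), where it kept 36.8% of the control level. The highest value of Fabp4, 17.14, was the highest of the whole table. The member of this group called early was Aqp7, the glycerol channel (-1.22 ± 0.37, adjusted p = 0.0378). Cd36, which takes fatty acids into the cell, differed by -0.47 ± 0.18 early (adjusted p = 0.104) in the probe set used, while another of its 3 probe sets passed (-0.74, adjusted p = 0.0151).

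For Lpl and Fabp4 the probe sets used read near the top of the scale and gave smaller tumour differences than dimmer probe sets of the same gene. A second Lpl probe set with a control mean of 15.10 differed by -6.51 in tumours (adjusted p = 4.97e-06), and the other Fabp4 probe sets differed by -3.70, -5.62 and -5.08. Early differences of these probe sets were -0.55 (adjusted p = 0.0649) for Lpl and -0.19, -0.40 and -0.52 for Fabp4, none of which passed. Over all 57 probe sets of the 28 genes, 28 were lower and 0 higher at 2M and 3M, and 47 were lower and 0 higher in tumours. Of the 10 not called in tumours, 8 had a control mean below 6. The others were the Insr probe set used and a second one of Dgat1 (-0.03). Of the 29 not called at 2M and 3M, 10 had a control mean below 6 and 19 one of 6 or more. In the early comparison some second probe sets were lower than the one used: Pck1 -2.41 (adjusted p = 0.0123), Slc2a4 -2.06, Gpd1 -1.87 and Dgat2 -1.46. Others, of genes called early by the probe set used, did not pass. They were of Lpin1 (-0.58, adjusted p = 0.318), Dgat1 (-0.22, adjusted p = 0.656) and Acvr1c (-1.13, adjusted p = 0.130), with control means of 10.31, 8.44 and 6.97. These probe sets were singled out after their values were seen.

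**Figure D3:**
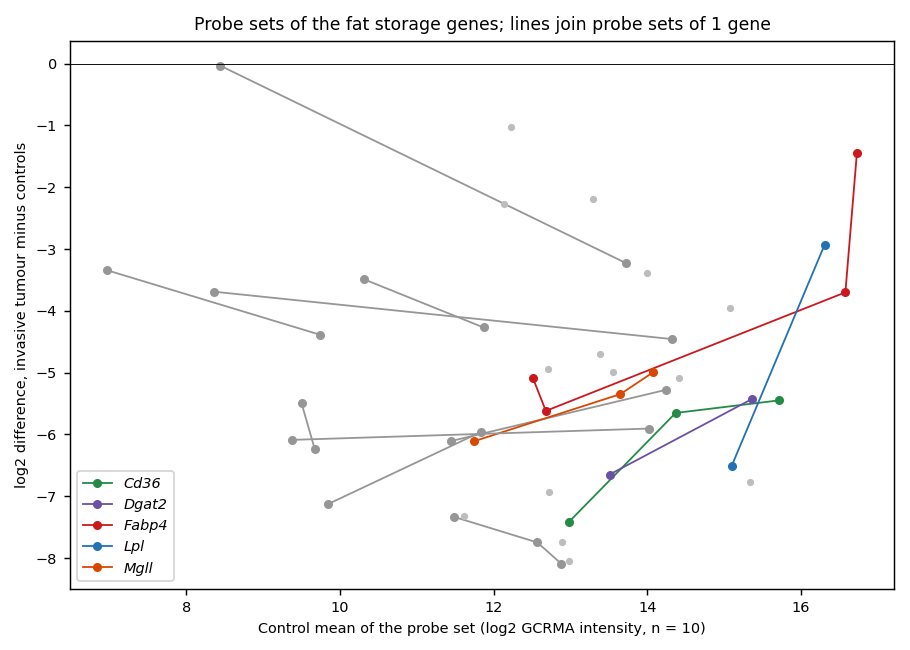
Log2 difference of invasive tumours from controls (y axis) against the control mean of each probe set (x axis, log2 intensity, n = 10), for probe sets of the 28 genes with a control mean of at least 6. Lines join probe sets of 1 gene, coloured for 5 genes, and the brightest probe sets of Fabp4 and Lpl lie above the dimmer ones of the same gene (-1.44 against -3.70 to -5.62 for Fabp4), while for Dgat1 the dimmer one lies near 0.

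Of the genes of triglyceride synthesis, 6 of 7 were lower early and 7 of 7 in tumours. All 7 had tumour arrays below every control, against 8.46% of all probe sets. Dgat2, which adds the last fatty acid, read 14.97 to 15.77 in controls and 13.94 to 15.30 at 2M and 3M. Its tumour values were 8.46, 9.21, 12.48, 8.96 and 10.54. The early groups overlapped and the fall was small, -0.45 ± 0.14 (adjusted p = 0.0406), while that of tumours was -5.43 ± 0.49 (adjusted p = 8.60e-07). Gpam, which adds the first fatty acid to glycerol phosphate, read 13.35 to 14.55 in controls, 13.06 to 13.92 at 2M and 3M and 9.97, 10.75, 11.80, 9.73 and 10.81 in tumours. Its differences were -0.52 ± 0.15 (adjusted p = 0.0238) and -3.39 ± 0.30 (adjusted p = 7.29e-07). Of the other members, Agpat2, Lpin1, Dgat1, Gpd1 and Pck1, which act between these steps or supply the glycerol backbone, the early differences ran from -1.11 to -0.73 and the tumour differences from -5.90 to -3.23. Pck1 was the one that did not pass early (adjusted p = 0.0830).

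Of the genes of hormone response, 3 of 5 were lower early and 4 of 5 in tumours. Irs1, which passes on the signal of the insulin receptor, read 13.01 to 13.62 in controls, 12.35 to 13.61 at 2M and 3M and 10.05, 11.97, 11.05, 11.11 and 11.27 in tumours. Its early difference was -0.24 ± 0.14 (adjusted p = 0.354) and its tumour difference -2.20 ± 0.22 (adjusted p = 3.06e-06). Pde3b, the phosphodiesterase through which insulin restrains lipolysis, read 12.68 to 13.80 in controls, 12.22 to 13.06 at 2M and 3M and 6.84, 8.12, 10.30, 8.94 and 9.16 in tumours. It differed by -0.76 ± 0.15 early (adjusted p = 0.00213) and by -4.70 ± 0.42 in tumours (adjusted p = 8.44e-07). The early calls also took in Slc2a4, the insulin-responsive glucose transporter (-1.24 ± 0.27), and Acvr1c, a receptor of the activin type (-0.93 ± 0.25).

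Insr, the insulin receptor gene, was the only one of the 28 that did not pass in tumours. It read 11.44 to 12.71 in controls, 11.34 to 12.84 at 2M and 3M and 10.80, 11.07, 13.67, 10.49 and 10.04 in tumours. Replicate 3 lay above every control and the other tumours lay below every control. The tumour difference was -1.02 ± 0.46 (adjusted p = 0.115). Without tumour replicate 3 it was -1.63 (adjusted p = 0.000185), and in 1 fit over all 40 arrays the difference of -1.02 passed (adjusted p = 0.0125). The early difference was -0.16 ± 0.19 (adjusted p = 0.746).

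The other fat-enriched genes fell furthest in tumours, with differences from -8.09 to -7.74. Tmem182, a membrane protein gene, read 11.89 to 13.74 in controls, 10.38 to 12.97 at 2M and 3M and 3.2, 3.63, 8.66, 3.64 and 6.60 in tumours. Its early difference of -0.96 ± 0.33 did not pass (adjusted p = 0.0679), and its tumour difference was -7.74 ± 0.76 (adjusted p = 2.00e-06). Slc7a10, an amino acid transporter gene, read 11.89 to 13.81 in controls, 11.69 to 12.81 at 2M and 3M and 2.23, 3.49, 9.43, 2.58 and 6.94 in tumours, the widest tumour spread of the 28 (SD 3.13, n = 5). Its differences were -0.91 ± 0.23 (adjusted p = 0.0141) and -8.05 ± 0.96 (adjusted p = 1.36e-05). Abcd2, a transporter of fatty acids into peroxisomes, differed by -1.14 ± 0.28 (adjusted p = 0.0104) and -8.09 ± 0.81 (adjusted p = 2.35e-06). For this group and for Lipe and Aqp7 the lowest tumour values, down to 2.23, came near the lowest value of the table (1.02), and the folds there are set by how such low values were summarised.

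**Figure D4:**
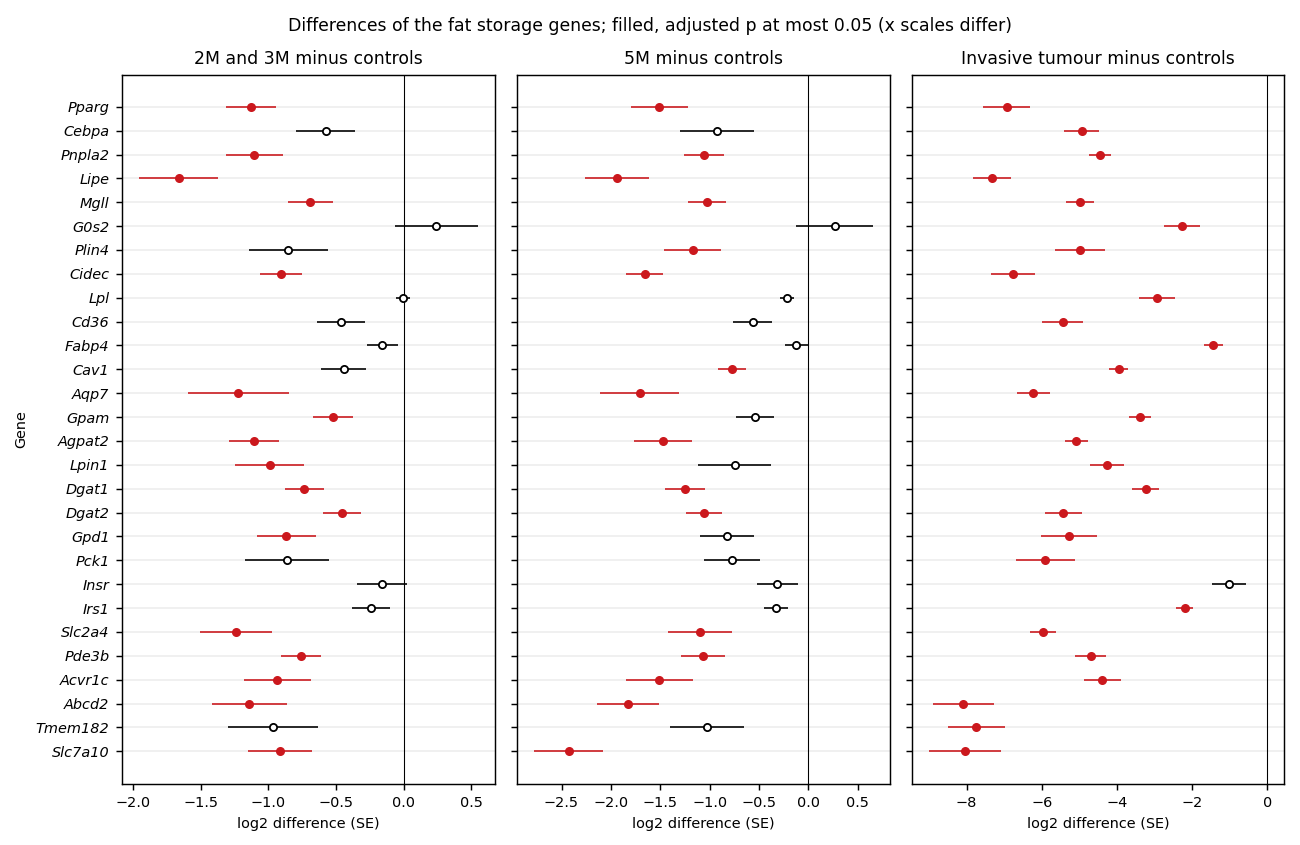
Log2 difference from the 10 controls with its standard error (x axis, scales differ) for each gene (y axis) at 2M and 3M, at 5M and in invasive tumours. Filled red points had an adjusted p of at most 0.05, which held for 17, 16 and 27 of the 28 genes, and G0s2 is the gene to the right of 0 at 2M and 3M and at 5M.

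At the threshold used by the study, an adjusted p of at most 0.01 and at least 5-fold, 0 of 28 genes were lower at 2M and 3M (background 0.0333%) and 24 of 28 in tumours (background 3.93%). These counts are from limma. By the methods' t-test the threshold was met by 0 genes early and by 14 in tumours. In limma the 4 not counted in tumours were G0s2, Fabp4, Insr and Irs1. In 26 of 28 genes all 5 tumour arrays lay below all 10 controls, against 8.46% of probe sets. G0s2 and Insr overlapped. At 2M and 3M the arrays of all 28 genes overlapped those of the controls (0 of 28 below, against 0.169% of probe sets).

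The tumours were also set against glands of 4M and 5M, the times at which tumours were taken. This comparison uses no control array, but it holds the same tumour arrays as the comparison with controls. Its 4M and 5M arrays also enter the monthly comparisons. Of the 28 genes 27 were lower (background 10.8%) and 0 higher (14.4%), 24 at the study's threshold (background 2.69%) and 24 without overlap (background 5.04%). By the methods' t-test 7 met the study's threshold, where the share of all probe sets by that test is again not given. The median difference was -4.22, beside -0.01 over all probe sets, and Insr was again not called (-0.69 ± 0.43, adjusted p = 0.315). Pparg differed by -5.80 ± 0.66 (adjusted p = 2.20e-05) and Lipe by -5.76 ± 0.53 (adjusted p = 4.33e-06). Fabp4 differed by -1.32 ± 0.24 (adjusted p = 0.000998).

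The tumours differed widely among themselves. The mean level of the 28 genes was 7.0, 7.84, 10.55, 8.17 and 9.19 in replicates 1 to 5, beside 12.84 to 13.84 on the control arrays. Replicate 3 was the highest tumour for 27 of 28 genes, the exception being Irs1, and replicate 1 was the lowest for 21. The SD over the tumours ranged from 0.69 (Irs1) to 3.13 (Slc7a10) and exceeded that of the controls in 27 of 28 genes, with medians of 1.29 and 0.44. The other adipocyte markers, read on the same arrays, stood at 6.02, 8.20, 11.36, 8.81 and 10.20 in these tumours, with the same lowest and highest array. Without replicate 3 the count of lower genes was 28, and without any other single tumour or control array it was 27 or 28.

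Markers of other cell types moved in the same samples. Over all probe sets the shares lower and higher were 6.53% and 5.36% at 2M and 3M, and 14.4% and 18.8% in tumours. In tumours 8 of 8 endothelial markers were lower (median -2.51), as were 5 of 7 fibroblast markers (-2.49) and 6 of 7 basal and myoepithelial markers (-3.18). Of the dividing cell markers 5 of 5 were higher (6.09), as were 6 of 6 milk genes (6.10), and 3 of 8 luminal epithelial markers were higher and 1 lower. At 2M and 3M 6 of 6 milk genes (8.59) and 5 of 5 dividing cell markers (3.90) were higher and 4 of 8 endothelial markers lower (-0.80), while 0 of 7 fibroblast markers passed. Of the luminal epithelial markers 4 of 8 were higher and 1 lower at 2M and 3M (median 0.48). Of the brown adipocyte markers 3 of 7 were lower at 2M and 3M and 3 of 7 in tumours, and of the 6 white adipocyte markers 3 and 6 were lower. Of the immune lists, 1 of 6 macrophage markers was higher early, 2 were lower and 1 higher in tumours, and 0 of 5 T cell, 0 of 4 B cell and 0 of 7 skeletal muscle markers passed in either comparison. The part of these changes in tissue make-up in the fall of the fat storage genes was not tested.

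**Figure D5:**
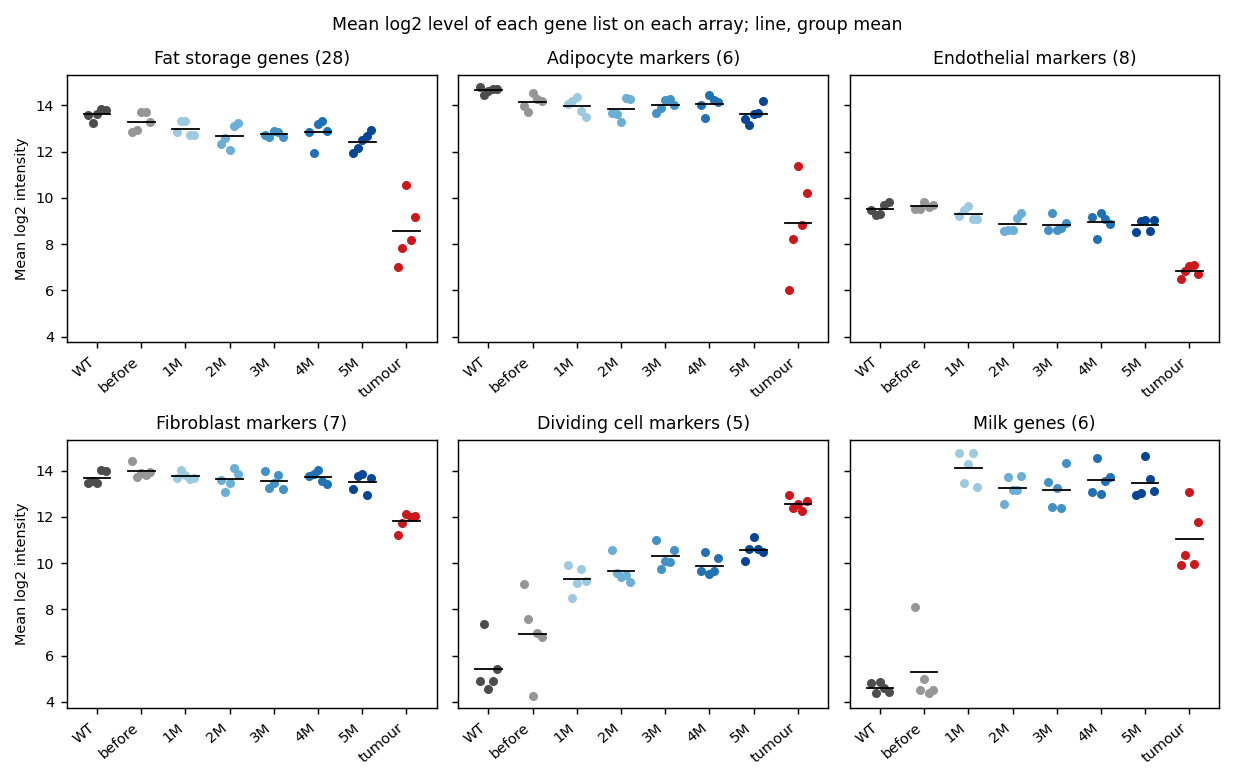
Mean log2 intensity (y axis) of the 28 fat storage genes and of 5 marker lists on each array, by group (x axis: WT, wild type; before, before activation; 1M to 5M; tumour, invasive tumour), with the group mean as a line. The fat storage genes and the 6 adipocyte markers fall and scatter in the tumours (7.0 to 10.55 and 6.02 to 11.36), where the endothelial mean spans 6.48 to 7.09.

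Month by month the median difference was negative at every time, and the counts of genes called differed. Against the controls 1 of 28 was lower at 1M (background 1.18%), 8 at 2M (1.98%), 12 at 3M (2.97%), 2 at 4M (1.55%) and 16 at 5M (5.50%), and 0 were higher at any month, where the backgrounds were 2.67%, 1.98%, 3.55%, 3.50% and 6.10%. The median differences were -0.53, -0.75, -0.76, -0.51 and -1.04. Of the 5 months, 5M had the lowest mean for 16 genes, 3M for 6, 2M for 5 and 4M for 1. The gene called at 1M was Abcd2 (-1.05 ± 0.27, adjusted p = 0.0415), and those called at 4M were Cidec (-1.49 ± 0.39, adjusted p = 0.0451) and Slc7a10 (-1.96 ± 0.43, adjusted p = 0.0201). At 5M, Slc7a10 (-2.43 ± 0.35, adjusted p = 0.000611) was the 1 gene past the study's threshold (background 0.0422%), Lipe differed by -1.94 ± 0.33 and Cidec by -1.66 ± 0.19. In 8 genes the 5M arrays lay below all controls (background 1.75%), and at 3M in 3 genes (0.828%). Over the 20 arrays of 2M to 5M the change per month passed for 0 genes (background 0.00888% lower), with a median slope of -0.05 (background 0.0577% higher). The lowest slope was that of Slc7a10, -0.51 ± 0.15 per month (adjusted p = 0.156), and the unadjusted p was below 0.05 for 3 of 28. Between 1M and 2M 0 of 28 differed (background 0.109% lower and 0.149% higher), with an unadjusted p below 0.05 for 2.

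Single arrays weighed on these monthly counts. In 2M the mean level of the 28 genes was 12.33, 12.61, 12.08, 13.11 and 13.26 in replicates 1 to 5, so that replicates 4 and 5 lay within the range of the controls. In 4M it was 12.86, 11.92, 13.20, 13.34 and 12.90, and replicate 2 was the lowest of its group for 24 of 28 genes. The difference between the 3' and 5' probe sets of Gapdh can be a sign of shortened RNA. The paper used such a ratio to judge hybridization and took only samples above a limit of RNA integrity. In each of the 5 months the array where the Gapdh difference was largest had the lowest or equal lowest mean of the 28 genes. The Gapdh difference reached 4.85 in 4M replicate 2 and 3.76 in 2M replicate 3, against 1.90 to 2.93 on the control arrays. It was also raised across the early groups, at 2.67 to 3.76 at 2M and 2.87 to 3.04 at 3M. The medians were raised at 1M (2.94, range 2.51 to 3.35) and in invasive tumours (2.90, range 2.23 to 3.41) too. Wild type read 2.39 to 2.60. Before activation read 2.93 in replicate 1 and at most 2.54 in the others. The lowest early values, 2.72 and 2.67, were those of 2M replicates 4 and 5. At 4M and 5M the medians were 2.61 and 2.48, against 2.51 in each control group. Without the 7 arrays above 3.2, a limit chosen after the data were seen, the count was 13 at 2M and 3M together. It was 0 at 2M and 0 at 4M, where 3 arrays were left each, 15 at 5M and 27 in tumours. That limit removed 2 early arrays and 0 controls, so the early groups still differed from controls in this measure. Skeletal muscle markers were high on 3 of the 5M arrays. Without all arrays of high muscle signal the count was 0 at 5M, where 2 arrays were left. It was 1 at 3M and 0 at 2M, where 4 were left each, and 8 at 2M and 3M together. That setting also dropped controls, keeping 3 wild type and 4 before activation arrays. Wild type replicates 4 and 5, which it dropped, had the highest control means of the 28 genes (13.84 and 13.80). Without arrays of high B cell signal the count was 11 at 2M and 3M together, with 4 wild type and 3 before activation arrays kept. At 2M alone that setting left 1 array, which cannot show whether the calls held. The part of RNA quality, muscle and lymphoid tissue in the early, monthly and tumour differences was not tested.

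The early result rested partly on the choice of controls. The difference between before activation and wild type was negative for 25 of 28 genes, with a median of -0.32 beside -0.05 over all probe sets. In limma 0 of the 28 passed, and so did 0 of the 45037 probe sets (0.00%), while the unadjusted p was below 0.05 for 5 of the genes. By the methods' t-test and with a variance trend 1 gene passed. Plin4 was the gene without overlap, at 12.85 to 13.32 before activation and 13.48 to 14.63 in wild type, where 16.9% of all probe sets lay below in the same way. With before activation alone as controls, 2 genes, Pparg and Acvr1c, were lower at 2M and 3M, with a median of -0.64 over the 28. Against before activation alone 26 of the 28 were still lower in tumours. Of the 17 genes called early, all had a negative difference in each of 578 values under the alternatives tried, and Pparg was the only one that passed under all of them.

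A wider set of 61 genes of the same pathways, of which 56 had a probe set, moved less evenly. At 2M and 3M 22 were lower (background 6.53%) and 1 higher (5.36%), with a median of -0.40. In tumours 38 were lower (background 14.4%) and 5 higher (18.8%), with a median of -1.49. Over the 56 genes the counts higher were thus no larger than the shares of all probe sets. The same shares apply to each list of these genes below. Of 14 other genes of the lipid droplet and lipolysis, 5 were lower and 1 higher early and 10 lower in tumours. Bscl2, the seipin gene needed to form droplets, differed by -1.06 ± 0.16 early and -3.54 ± 0.18 in tumours. Fitm2, which also serves droplet formation, differed by -1.07 ± 0.21 early and -3.81 ± 0.32 in tumours, and Gpihbp1, which carries Lpl to the capillary wall, by -0.94 ± 0.23 early. Cavin1, a caveola gene, differed by -3.80 ± 0.28 and Plin2, the droplet coat of many cell types, by -1.45 ± 0.15 in tumours. Lipa, the lysosomal lipase, was the one that rose early (0.98 ± 0.20, adjusted p = 0.00263), and in tumours it differed by -0.70 ± 0.27 (adjusted p = 0.0614).

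Of 16 other genes of uptake and triglyceride synthesis, 9 were lower early, and 10 were lower and 1 higher in tumours. Agpat3, an acyltransferase, differed by -0.97 ± 0.11 early, with all 10 arrays below all controls (background 0.169%), and by -2.79 ± 0.18 in tumours. Pcx, the pyruvate carboxylase, differed by -1.05 ± 0.23 early and -4.69 ± 0.35 in tumours, and Gpat3, an isozyme of Gpam, by -0.83 ± 0.19 early and -6.12 ± 0.52 in tumours. Slc27a1, a fatty acid transporter, differed by -1.19 ± 0.27 early. Acsl4, an acyl-CoA synthetase that prefers polyunsaturated fatty acids, was the one that rose in tumours (2.39 ± 0.18, adjusted p = 1.58e-07), above all controls.

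Of 12 other transcription factors of fat cells, 4 were lower early, and 9 were lower and 3 higher in tumours. Nr1h3, the LXR alpha receptor (-1.04 ± 0.21), Zfp423 (-1.07 ± 0.25), Rxrg (-1.07 ± 0.25) and Klf15 (-0.69 ± 0.20) were lower early. Klf15 (-4.44 ± 0.28), Ebf2 (-4.54 ± 0.31), Rxrg (-3.63 ± 0.28) and Ebf1 (-3.80 ± 0.37) were lower in tumours. Cebpb (2.57 ± 0.34, adjusted p = 3.01e-05), Cebpd (1.37 ± 0.44, adjusted p = 0.0257) and Klf5 (1.33 ± 0.41, adjusted p = 0.0214), which act early in fat cell differentiation and are also used by epithelial cells, were the ones that rose in tumours. Cebpa, of the same family as Cebpb and Cebpd, differed there by -4.94.

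Of 14 other genes of insulin and adrenergic signalling, 4 were lower early, and 9 were lower and 1 higher in tumours. Hcar2, a receptor that restrains lipolysis, differed by -1.73 ± 0.24 early, below all controls on all 10 arrays (background 0.169%), and by -5.03 ± 0.45 in tumours. Trarg1, which helps move the Slc2a4 transporter, differed by -1.19 ± 0.32 early and -6.04 ± 0.49 in tumours. Gnas, the stimulatory G protein gene, differed by -0.44 ± 0.14 early, and Prkar2b, a regulatory subunit of protein kinase A, by -3.88 ± 0.29 in tumours. The insulin pathway kinase Akt2 differed by -0.75 ± 0.15 early (adjusted p = 0.00256) and by -1.61 ± 0.17 in tumours (adjusted p = 3.90e-06). Its relative Akt1 differed by 0.06 ± 0.14 early (adjusted p = 0.899) and was higher by 0.80 ± 0.16 in tumours (adjusted p = 0.00124).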

How the data were processed

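The 40 arrays (Affymetrix whole-genome mouse arrays, labelled from a small amount of total RNA by amplification in more than one cycle) were deposited as a table of linear intensities, which the authors made from CEL files with GCRMA in GeneSpring GX. A second deposited table holds log2 values of the same summaries, centred on the median of each probe set by the authors. With these medians added back, both tables agree within 1.04e-06. Columns of the first table name the group only, so replicates were taken from the second. GCRMA shares signal distributions between arrays, so a change common to most genes would not be seen.

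The members and all gene lists were chosen with earlier results of these data known. limma 3.58.1 (R 4.3.3) was fitted to log2 intensities of the groups compared, two-sided, with Benjamini-Hochberg adjustment over 45037 probe sets, leaving out 64 control probe sets. Calls used an adjusted p of at most 0.05 and, beside it, the study's 0.01 with 5-fold. The script was tested on simulated data. Gene symbols came from GEO's platform annotation: 34945 probe sets had 1 symbol, 932 several and 9160 none. Values by group are given for the 2 genes of each role with the highest mean level, and for members not called in tumours. Each array is 1 mouse, and array number limits the precision. The arrays carry no count of depth. Figures were drawn with matplotlib 3.10.9.

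The alternatives were quantile normalization, a variance trend, a filter on dim probe sets (mean below 5), the mean of all probe sets of a gene, the methods' t-test (unequal variances), 1 fit over all arrays, the other table, the replicate number as a block, each control group alone, arrays of high Dap only, and each array left out. Leaving out arrays of high B cell (above 6), muscle (above 8) or Gapdh 3' to 5' signal (above 3.2), and keeping those of low Dap only, were added after the data were seen.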

Additional observations from a re-analysis of the deposited data

Results flagged for a closer look

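Of 224 sets of 5 arrays (28 genes in 8 groups), 11 held an array far from the other 4 by Dixon's test, where chance alone flags about 1 in 20 sets. The count is near that share, so the arrays named below are a description only. In the tumours replicate 3 stood above the others for Insr (13.67), Aqp7 (4.81), Slc2a4 (7.38) and Acvr1c (7.58). In wild type replicate 2 stood below the others for Aqp7 (8.81) and Slc2a4 (11.62). The other arrays that stood apart were 2M replicate 3 for G0s2 (11.48), 2M replicate 1 for Acvr1c (8.53), 1M replicate 5 for Dgat2 (13.20), 4M replicate 2 for Cidec (11.73) and 5M replicate 4 for Pck1 (14.01).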

How the results depend on the processing

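The tumour count stayed between 26 and 28 of 28 over 29 settings. In 812 values of single genes in tumours 4 had another call, which were Insr and G0s2 as described above, Insr in the fit over all arrays, and Lpl in the methods' t-test (adjusted p = 0.0599). By that t-test the study's threshold was met by 14 genes against controls and by 7 against 4M and 5M, counts without a share of all probe sets beside them. The early count of 17 fell to 10 in 1 fit over all 40 arrays, 11 with high Dap arrays only, 11 without high B cell arrays, 8 without high muscle arrays and 2 against before activation only. Differences near 0 changed sign: Lpl was 0.04 with high Dap arrays and with before activation only, and 0.03 without high muscle or high Gapdh arrays, Insr was 0.02 without high B cell arrays and 0.00 with before activation only, and G0s2 was -0.27 with wild type only. With single arrays left out Lpl ranged from -0.03 to 0.02.

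At 1M the count of 1 became 3 with dim probe sets left out or with the mean of probe sets, 2 by the t-test and 7 with wild type only, and 0 in the fit over all arrays, with the replicate block, with before activation only, with high Dap arrays, and without high B cell, muscle or Gapdh arrays. At 2M the 8 became 4 by the t-test or in the fit over all arrays, and 0 with high Dap arrays, with before activation only, and without high muscle or Gapdh arrays (4 and 3 arrays left). Without high B cell arrays it was 0 too, with 1 array left, taken to vary like the others, which says nothing of stability. At 3M the 12 became 3 in the fit over all arrays or with high Dap arrays, 7 without high B cell arrays, 1 without high muscle arrays and 0 with before activation only. At 4M the 2 became 6 without dim probe sets, 4 with the replicate block or a variance trend, 1 in the fit over all arrays or with high Dap arrays, and 0 by the t-test, with before activation only, and without high muscle or Gapdh arrays. At 5M the 16 became 9 with low Dap arrays (4 against 3 controls), 9 with before activation only and 0 without high muscle arrays (2 left). It was 2 with high Dap arrays, where 1 array was left and stability cannot be read, and the 1 gene at the study's threshold became 0 in these settings and in the fit over all arrays. Before activation against wild type gave 1 by the t-test or with a variance trend. Without the high muscle arrays 3 wild type and 4 before activation arrays were kept, and without the high B cell arrays 4 and 3. With high Dap arrays only these were 3 and 4. The causes were not tested.

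With single arrays left out the counts ranged from 15 to 21 at 2M and 3M together, 27 to 28 in tumours against controls and against 4M and 5M (24 to 25 and 23 to 25 at the study's threshold), 0 to 6 at 1M, 0 to 11 at 2M, 6 to 14 at 3M, 0 to 5 at 4M and 14 to 19 at 5M (0 to 1 at the study's threshold, 0 without 5M replicate 2). The count at 1M was 0 without any 1M or wild type array or without before activation replicate 3 or 4, 2 without before activation replicate 2 and 6 without before activation replicate 1. At 2M it was 0 without 2M replicate 1, 1 without replicate 2 or 3, 3 without wild type replicate 2, and 2 without any other wild type array or before activation replicate 3 or 4. At 3M it was 6 without replicate 1 and 7 without any other 3M array. At 4M it was 0 without replicate 5, 1 without replicate 1, any wild type array or before activation replicate 3, 4 or 5, and 5 without 4M replicate 3 or before activation replicate 1. The labels do not say that replicate numbers pair the mice, so the main fits used no pairing. Of the 140 same-numbered pairs of arrays, 61 had deviations that correlated above 0.1. The mean correlation was 0.057, against -0.014 for other numbers, and 20 of 40 arrays correlated best with their own number, where 8 would if the numbers were equally likely, a hint from the data and not from the design. The replicate block changed no count past 1.5 times other than those at 1M and 4M.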
